A study of Mus musculus with 12 samples.

Results

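Id1, Id2, Id3, Smad6 and Smad7 are genes that bone morphogenetic protein (BMP) signalling commonly switches on. Their levels are described in mouse PGCLCs, primordial germ cell-like cells, made in culture to resemble the embryonic cells that give rise to gametes. The 5 genes were taken by name from a deposited table of 12955 genes, and all 5 were present in it. They had been picked with earlier results of these data in view, in part for how the ID genes behave in OE cells at the days sampled. Their OE values and their course in EV cells are therefore given as a description without a test, and only the response to dTAG13 is tested. An opposite OE behaviour at day 2 and day 6 is not what the values show, since Id1, Id2 and Id3 each had a lower mean in OE than in EV on both days.

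The cells came from J1 male mouse embryonic stem cells and were sorted for CD61 and SSEA1 from embryoid bodies, the floating aggregates in which PGCLCs form. Poly(A) RNA of 12 libraries was sequenced, in 6 groups of 2 libraries. EV and OE cells were each taken at day 2 and at day 6, and cells given DMSO or dTAG13 for 2 days were taken at day 2. EV and OE are not written in full in the labels, and the series title names Tex10. dTAG13 is a degrader, a small molecule that directs suitably tagged proteins to destruction, and DMSO is its solvent. How the EV, OE and tagged cells were built is not given in the sources used here, nor whether the libraries of a group came from separate cultures. P-values then measure only the spread between these libraries, which may be technical.

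Levels are given in FPKM, fragments scaled to transcript length and to the size of the library, and differences as differences of mean log2(FPKM + 1), which understates changes of low genes. The summed FPKM of a library ran from 550230 to 673435, and the number of reads behind them is not given in the sources used here. Tex10 ran from 378 to 403 FPKM in day 2 OE against 119 to 145 in EV, from 259 to 269 in day 6 OE against 65.7 to 81.5, and from 36.5 to 45.2 with dTAG13 against 56.8 to 61.7 with DMSO. D2_dTAG replicate 1 had 2008 genes listed at 0, against 18 to 127 in the other 11 libraries. Of 12 PGCLC markers 11 were in the table, with a summed level of 1050.1 to 1604 FPKM, led by Pou5f1 and Nanog. Itgb3, which encodes CD61, was low at 0 to 4.39 FPKM and listed at 0 in D2_dTAG replicate 1. Marker sums were 2.74 to 12.5 FPKM for mesoderm (5 of 7 in the table), 0 to 6.39 for endoderm (2 of 4), 1.09 to 14.3 for trophoblast and amnion (2 of 5) and 0.0255 to 5.76 for fibroblasts and feeders (2 of 5). The endothelial and blood sum of 32.2 to 113 FPKM (2 of 5) was nearly all Pecam1, which pluripotent and germ cells also express. These are bulk samples, so fewer cells of a type and less RNA per cell cannot be told apart.

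BMP ligands bind paired type I and type II receptors, which phosphorylate SMAD1, SMAD5 and SMAD9. These join SMAD4 and enter the nucleus, where the ID genes are among their best known direct targets. ID proteins carry a helix-loop-helix but no DNA-binding region, so they pair with E proteins such as those of Tcf3, Tcf4 and Tcf12 and keep them off DNA. SMAD6 and SMAD7 are inhibitory SMADs that BMP signalling also induces and that close a negative feedback loop. SMAD7 restrains the activin and TGF-beta branch as well. BMP4 is a signal that induces epiblast cells to become germ cells in the mouse embryo.

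In GENCODE M21, which uses the GRCm38 (mm10) assembly, Id1 lies on chromosome 2 from 152736251 to 152737410, Id2 on chromosome 12 from 25093799 to 25097140 and Id3 on chromosome 4 from 136143497 to 136145755. Smad6 lies on chromosome 9 from 63953076 to 64022059. Promoter windows of 250 bases before the start were matched for 3 of the 5, Id2, Id3 and Smad6 (RefSeq, GRCm38.p6), and not for Id1 and Smad7. They were searched on both strands for GGCGCC, the core of the BMP element bound by SMAD1 and SMAD5, and for GTCT, the short SMAD-binding core. GGCGCC reads the same on both strands and was counted once, and neither motif contains the other. Id2 held 1 GGCGCC and 1 GTCT, Id3 held 2 GTCT and no GGCGCC, and Smad6 held 1 GTCT and no GGCGCC. Of 32851 promoter windows of that length, 9.59% held GGCGCC and 82.9% held GTCT. The longer element that joins both cores across a gap of 5 bases was in 0.0700% of windows and in 0 of these 3. Stretches of Id2 and Id3 are printed here, and a link between the motifs and the levels was not tested. The GTCT of Id2, at -23 to -20 from the start, lies outside the printed stretch, and Smad6 is not printed. The Id2 stretch is chr12:25096254-25096342, minus strand, the part of its window outside annotated exons. The whole Id2 window lies inside the GENCODE span of the gene given above, so the stretch is not upstream of the annotated gene. The rest of that window, with the GTCT, lies in annotated exons. The Id3 stretches are chr4:136143643-136143672 and chr4:136143741-136143770, plus strand, inside the leading exon of a longer GENCODE transcript. Capitals mark the matches, AGAC being GTCT read on the other strand.
Id2: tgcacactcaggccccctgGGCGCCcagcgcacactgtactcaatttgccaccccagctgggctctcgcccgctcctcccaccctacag
Id3, upstream match: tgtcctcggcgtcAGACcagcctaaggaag
Id3, downstream match: tggacccttggcgGTCTgttttgaataagg

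Id3 was among the more abundant transcripts at day 2 and stood apart in OE cells at day 6. The EV libraries had 302 and 283 FPKM at day 2, and the OE libraries 279.9 and 260.2. By day 6 the EV libraries had 179.5 and 183 FPKM and the OE libraries 33.1 and 32.6. Every day 6 library was thus below every day 2 library, and the day 6 OE pair lay far below the day 6 EV pair. The mean of day 6 EV was 5.52 times that of day 6 OE, a difference of -2.43 on the log2(FPKM + 1) scale and the third lowest of 12059 genes tested. At day 2 the difference was -0.11 (-0.17 to -0.06 without single libraries), with an OE mean of 270.1 ± 13.9 against an EV mean of 292 ± 13.6 FPKM (SD, n = 2). The ranges at day 2 came close to each other, with the higher OE library at 279.9 FPKM and the lower EV library at 283 FPKM. Beside this, the PGCLC marker sum was 1308 to 1320.2 FPKM in day 6 OE and 1151 to 1157 in day 6 EV, the mesoderm sum 6.36 to 6.63 and 6.07 to 6.78, and the endothelial and blood sum 109.6 to 113 and 64.2 to 74.0. The trophoblast and amnion sum was 2.63 to 3.67 and 1.996 to 2.06, the endoderm sum 4.68 to 6.39 and 4.19 to 4.69, and the fibroblast and feeder sum 5.60 to 5.76 and 3.41 to 5.36. At day 2 the trophoblast and amnion sum was 1.09 to 1.23 FPKM in OE and 2.83 to 3.22 in EV. Within the day 6 PGCLC sum the genes did not move together. Nanog read 269 and 277 FPKM in OE against 184 and 163 in EV, and Kit 96.0 and 92.6 against 46.7 and 41.4. Pou5f1 read 773 and 766 FPKM against 780 and 810, and Nanos3 3.89 and 2.84 against 9.22 and 6.29. The part of these cell types in the ID levels was not tested. From day 2 to day 6 Id3 stood at -0.68 in EV, while in OE the day 2 mean was 8.22 times the day 6 mean. Ordered by mean, dTAG13 (352 ± 28.4 FPKM) came highest, clear of day 2 EV, DMSO (287 ± 14.6) and day 2 OE. The last 3 overlapped from each to the next, and day 6 EV (181 ± 2.64) and day 6 OE (32.9 ± 0.339) followed, each clear of its neighbours.

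Id1 was lower in OE than in EV on both days, with wide spread between EV libraries. On day 2 the EV pair had 177 and 106 FPKM of Id1, and the OE pair 93.1 and 102. On day 6 these were 232 and 154 FPKM for EV and 104 and 110.1 for OE. The OE pairs were tight and lay below the EV pairs, but EV replicate 2 at day 2 was only just above OE replicate 2. The difference was -0.49 at day 2 and -0.81 at day 6, where the EV mean was 1.80 times the OE mean. Both sizes rest on single EV libraries. The day 2 difference was -0.12 without D2_EV replicate 1 and -0.85 without D2_EV replicate 2, and the day 6 difference was -0.52 without D6_EV replicate 1 and -1.11 without D6_EV replicate 2. In EV cells Id1 stood at 0.46 from day 2 to day 6, and the EV ranges of the days overlapped. Leaving out single EV libraries gave 0.09 to 0.82, lowest without D2_EV replicate 2 and highest without D2_EV replicate 1. Ordered by mean, dTAG13 (342 ± 22.4 FPKM) and DMSO (264 ± 18.3) came above all other groups and clear of each other. Day 6 EV (193 ± 55.6), day 2 EV (142 ± 49.9) and day 6 OE (107 ± 4.29) overlapped from each to the next, and day 2 OE (97.5 ± 6.23) came last.

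Id2 was higher at day 6 than at day 2, the reverse of Id3. Its level on day 2 was 36.2 and 35.8 FPKM for EV, with OE at 27.0 and 24.4. On day 6 it was 84.0 and 63.0 FPKM for EV, with OE at 56.4 and 65.4. The day 2 OE pair lay below the day 2 EV pair, whereas the day 6 groups overlapped. OE stood at -0.47 against EV at day 2 and at -0.26 at day 6. The day 6 value was -0.05 without D6_EV replicate 1, -0.46 without D6_EV replicate 2 and -0.15 without D6_OE replicate 1. The day 6 mean was 2.04 times the day 2 mean in EV (0.995 on the log2 scale) and 2.37 times in OE. By mean, day 6 EV (73.5 ± 14.9 FPKM), dTAG13 (65.9 ± 37.1), day 6 OE (60.9 ± 6.34) and DMSO (56.1 ± 5.90) overlapped from each to the next. Day 2 EV (36.0 ± 0.319) and day 2 OE (25.7 ± 1.83) lay below them, clear of each other.

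**Figure D1:**
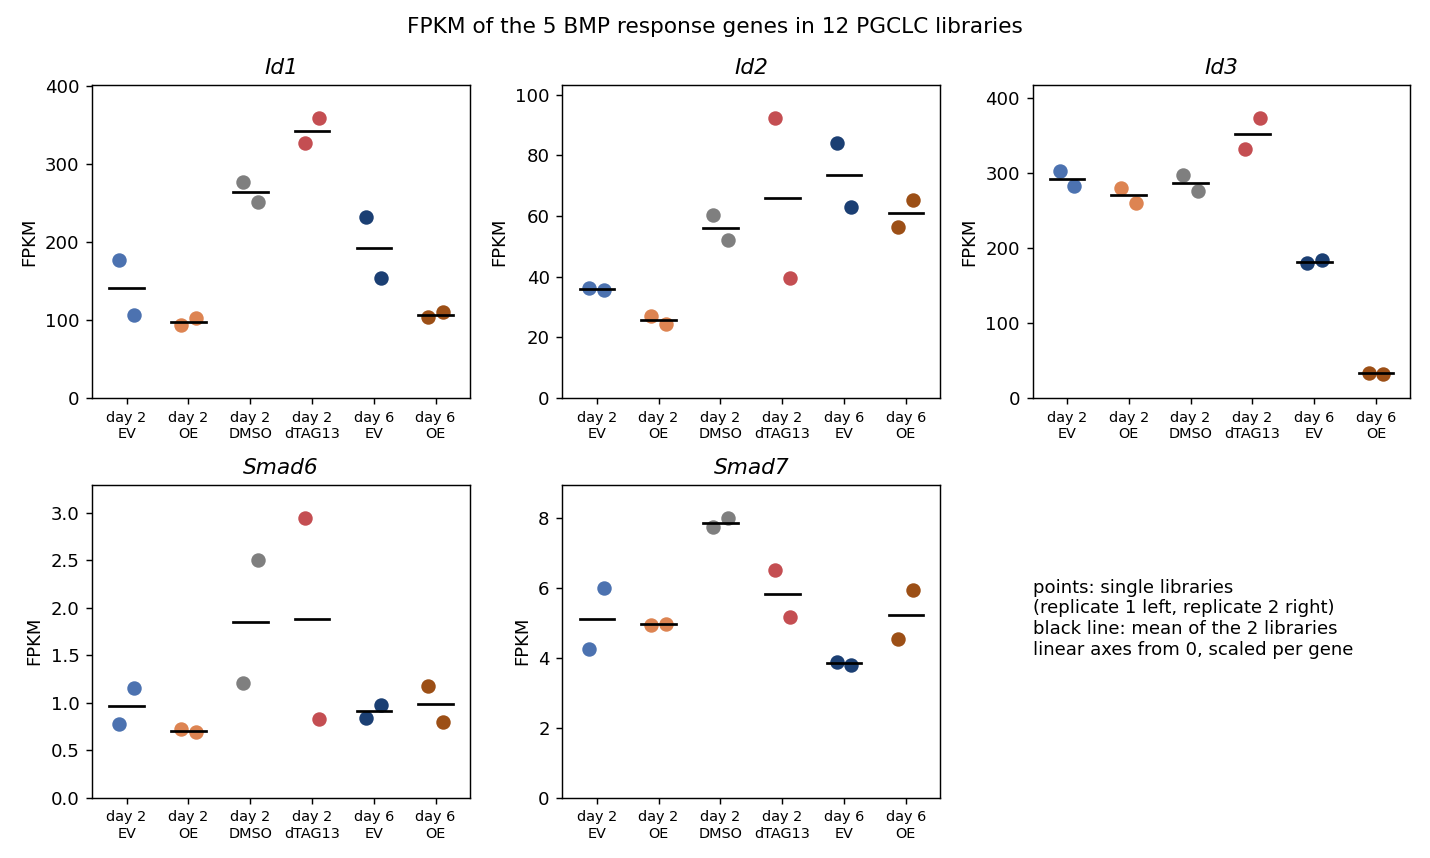
FPKM of each of the 5 genes in the 12 libraries, with 1 linear axis per gene starting at 0; points are single libraries and black lines the means of 2. Id3 in day 6 OE sits at 32.6 and 33.1 FPKM, against 179.5 and 183 in day 6 EV.

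Smad7, on chromosome 18 from 75367529 to 75395935, was a low to moderate transcript whose mean at day 6 was higher in OE than in EV. Day 2 levels were 4.25 and 6.01 FPKM for EV, with OE at 4.96 and 4.98. Day 6 levels were 3.90 and 3.80 FPKM for EV, with OE at 4.54 and 5.96. The day 2 groups overlapped, and the day 6 OE pair lay above the day 6 EV pair. OE stood at -0.02 against EV at day 2 and at 0.36 at day 6. The day 2 value was -0.23 without D2_EV replicate 1 and 0.18 without D2_EV replicate 2, so its sign is not settled, and the day 6 value was 0.19 without D6_OE replicate 2 and 0.52 without D6_OE replicate 1. Ordered by mean, DMSO came highest (7.88 ± 0.182 FPKM) and clear of dTAG13. From dTAG13 (5.85 ± 0.955) through day 6 OE (5.25 ± 1.01) and day 2 EV (5.13 ± 1.24) to day 2 OE (4.97 ± 0.0146) each group overlapped the next, and day 6 EV (3.85 ± 0.0713) came last. Smad6 was near the lower limit of the table, between 0.692 and 2.95 FPKM. EV had 0.778 and 1.16 FPKM on day 2 and OE 0.722 and 0.692, and on day 6 EV had 0.845 and 0.978 and OE 1.17 and 0.803. OE stood at -0.20 against EV at day 2 and at 0.05 at day 6, and single libraries left out gave -0.34 to -0.06 and -0.08 to 0.19. With no read counts, how much of this is sampling cannot be stated.

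Counted together, both OE libraries lay below both EV libraries for 4 of the 5 genes at day 2 (all but Smad7), as for 22.6% of all genes tested. At day 6 this held for Id1 and Id3, against 29.5% of all genes, while Smad7 had both OE libraries above, against 39.3%. With time in EV, Id2 had both day 6 libraries above both day 2 libraries (39.9% of all genes), and Id3 and Smad7 had both below (33.0%). Because the genes were picked on these contrasts, nothing is read from these shares. The difference between the OE effects, day 6 minus day 2, was -2.32 for Id3, -0.32 for Id1, 0.22 for Id2, 0.25 for Smad6 and 0.38 for Smad7. Except for Id3, at -2.37 to -2.26, these values moved by over 1.5 times without single libraries. That of Id1 was -0.69 without D2_EV replicate 1, 0.04 without D2_EV replicate 2 and -0.03 without D6_EV replicate 1. For Id2 it was 0.42 with D6_EV replicate 1 left out and 0.01 with D6_EV replicate 2 left out, for Smad6 it ran from 0.11 (without D2_EV replicate 2) to 0.39 (without D2_EV replicate 1) and for Smad7 from 0.17 (without D2_EV replicate 2) to 0.59 (without D2_EV replicate 1).

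Since FPKM is scaled to transcript length, the ID genes can be set beside each other within a library. Their summed level was 515 and 425 FPKM for EV on day 2, with OE at 399.97 and 387, and 496 and 399.7 for EV on day 6, with OE at 194 and 208. The day 6 OE pair was the lowest of the 12 libraries and did not overlap any other group. The make-up of the sum differed too. Id3 made up 58.6% and 66.6% of it in day 2 EV, 69.97% and 67.3% in day 2 OE, and 36.2% and 45.8% in day 6 EV. In day 6 OE its share was 17.1% and 15.7%, with Id2 at 29.2% and 31.4%. DMSO and dTAG13 libraries held between 44.2% and 48.4% Id3. The summed ID level over the summed level of the E protein genes Tcf3, Tcf4 and Tcf12 was 11.9 and 8.39 for EV on day 6, with OE at 3.79 and 4.16. It was 8.74 and 9.14 in day 2 EV, 5.79 and 6.29 in day 2 OE, 14.3 and 13.4 with DMSO and 34.4 and 23.0 with dTAG13. The lowest ratios were therefore those of day 6 OE and the highest those of dTAG13, where the E protein sum was also lowest at 21.9 and 33.5 FPKM.

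**Figure D2:**
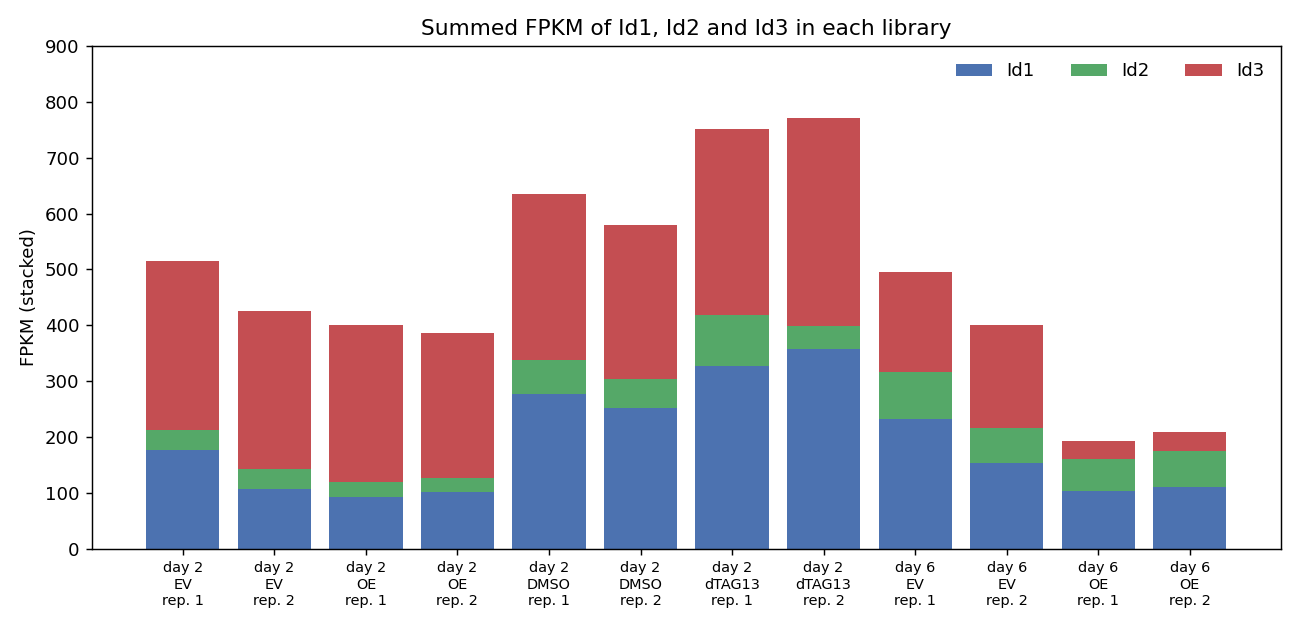
Stacked FPKM of Id1 (blue), Id2 (green) and Id3 (red) in each of the 12 libraries, on a linear axis from 0. The sum is lowest in day 6 OE, at 194 and 208 FPKM, and highest with dTAG13, at 751 and 770.4.

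The day 2 controls were not alike for these genes. With DMSO, Id1 read 277 and 251 FPKM, Id2 60.3 and 52.0, and Smad7 7.75 and 8.01, each above the day 2 EV pair. The DMSO mean was 1.87 times the EV mean for Id1, 1.56 times for Id2 and 1.54 times for Smad7. Id3 did not share this, at 297 and 276 FPKM with DMSO against 302 and 283 in EV. Smad6 read 1.21 and 2.51 FPKM with DMSO, above EV at 0.778 and 1.16. The EV libraries belong to the contrasts on which the genes were picked, so these values are a description. How many of all genes separate in this way between the controls was not counted. Nothing particular to these genes is therefore read from it.

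With dTAG13, Id1 and Id3 read higher than with DMSO in both libraries, but none of the 5 genes passed the test. The test was limma on log2(FPKM + 1) over 12059 genes, with Benjamini-Hochberg adjustment and a threshold of 0.05. Id3 read 332 and 373 FPKM with dTAG13 against 297 and 276 with DMSO, a difference of 0.30 (SE 0.09, 95% interval 0.09 to 0.51, adjusted p = 0.0661). Both dTAG13 libraries lay above all other libraries of the series for Id3. Without D2_dTAG replicate 1 its difference was 0.38, and whether it passed the threshold depended on that library. That run leaves 1 dTAG13 library, so no call is taken from it. Id1 read 327 and 358 FPKM against 277 and 251, a difference of 0.37 (SE 0.23, 95% interval -0.14 to 0.89, limma adjusted p = 0.295). For Id1 too, no other library reached the dTAG13 pair. Id1 stood at 0.44 without D2_dTAG replicate 1. Groups that did not overlap with dTAG13 higher made up 13.8% of all genes, and 12.2% of all genes passed the test in either direction. Of those, 483 were higher and 990 lower, against 707 and 596 under median-ratio scaling. The median gene stood at -0.13, and Id1 and Id3 stood at 0.46 and 0.38 under that scaling.

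The other 3 genes gave no common picture with dTAG13. Smad7 read 6.52 and 5.17 FPKM against 7.75 and 8.01 with DMSO, so both dTAG13 libraries were lower, as for 34.7% of all genes. Its difference was -0.38 (SE 0.22, 95% interval -0.87 to 0.11, limma adjusted p = 0.258). Id2 read 92.1 and 39.6 FPKM with dTAG13 against 60.3 and 52.0, on either side of the DMSO pair. Its difference was 0.11 (SE 0.31, 95% interval -0.58 to 0.80, limma adjusted p = 0.835). It became -0.49 without D2_dTAG replicate 1 and 0.71 without D2_dTAG replicate 2. Each of these runs leaves 1 dTAG13 library, so the sign is not settled. Smad6 read 2.95 and 0.825 FPKM against 1.21 and 2.51, at -0.05 (SE 0.34, 95% interval -0.82 to 0.72, limma adjusted p = 0.936). Without D2_dTAG replicate 1, Smad6 stood at -0.61. In these groups the mesoderm marker sum was 7.94 to 12.5 FPKM with dTAG13 and 5.50 to 6.92 with DMSO, of which Hand1, itself a BMP target, gave 7.94 and 10.7 FPKM and 4.16 and 2.88 FPKM. The trophoblast and amnion sum was 2.64 to 14.3 FPKM with dTAG13 and 4.18 to 4.38 with DMSO. The part of other cell types in these values was not tested.

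Around the ID genes, 76 other genes of the pathway were listed by role, of which 50 were in the table and 44 passed the filter on low values. These lists were written with earlier results known. In OE at day 2, 0 of the 44 passed the limma test (6 at an unadjusted p under 0.05), with 0.846% of all genes called; their median was 0.01 against 0.04 for all genes. In OE at day 6, 1 fell and 0 rose (7 at an unadjusted p under 0.05), against 3.72% of all genes called in either direction and 1.79% lower, with a median of 0.18 against 0.05. For the difference of the OE effects the limma count was 0 (3 unadjusted), against 0.232% of all genes. With dTAG13, 4 rose and 3 fell, or 15.9% of the 44 against 12.2% of all genes (4.01% higher and 8.21% lower), with a median of -0.09 against -0.13. From day 2 to day 6 in EV cells, 7 rose and 1 fell, or 18.2% against 23.7% of all genes (13.3% higher and 10.5% lower), with a median of 0.27 against 0.04. The counts depend on D2_dTAG replicate 1, also where it is in neither group compared. Without it, 10 of the 44 passed for OE at day 2 (22.7% against 14.0% of all genes), 11 for OE at day 6 (25.0% against 25.3%) and 4 for the difference (9.09% against 11.1%). With dTAG13 it was 13 (29.5% against 23.3%), and with time in EV 25 (56.8% against 52.1%). Without D2_dTAG replicate 2 the dTAG13 count was 27 (61.4% against 60.2%). No test compared the pathway shares with those of all genes.

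Among the ligands, Bmp4 had the most calls. On day 2 EV had 56.0 and 65.0 FPKM and OE 75.2 and 68.4, and on day 6 EV had 23.6 and 33.6 and OE 16.7 and 15.5. Levels were thus lower at day 6, and lowest in day 6 OE. Bmp4 fell by 0.77 in OE at day 6 (SE 0.17, limma adjusted p = 0.0418), the only pathway gene called there. Leaving out any 1 of the 4 day 6 libraries ended that call, at adjusted p from 0.0506 to 0.310, and a pseudocount of 0.1 gave 0.0508. From day 2 to day 6 in EV it fell by 1.07 (SE 0.17, limma adjusted p = 0.0024). With dTAG13 Bmp4 read 25.3 and 22.8 FPKM against 36.4 and 43.2 and fell by 0.70 (SE 0.17, limma adjusted p = 0.0312). Bmp7, a related ligand that signals through the same SMADs, rose from 0.863 and 0.307 FPKM with DMSO to 5.93 and 3.04 with dTAG13, by 1.76 (SE 0.30, limma adjusted p = 0.00725; 1.37 without D2_dTAG replicate 1). It also rose with time in EV, from 0.618 and 0.477 to 3.39 and 2.40 FPKM, by 1.32 (limma adjusted p = 0.0113). Bmp8a and Gdf3 did not pass in any comparison, and Bmp8b did not pass the filter.

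At the receptors, the type I receptor gene Bmpr1a ran from 1.80 to 6.14 FPKM over the 12 libraries and did not pass in any comparison. The highest of these values was in D2_dTAG replicate 1, with 2.22 in D2_dTAG replicate 2. Bmpr1b and the type II receptor gene Bmpr2 were not in the table. Eng encodes endoglin, a co-receptor best known from endothelium. It read 23.3 and 23.3 FPKM with dTAG13 against 11.4 and 9.84 with DMSO and rose by 1.07 (SE 0.17, limma adjusted p = 0.00576). From day 2 to day 6 in EV, Eng rose by 0.88 (limma adjusted p = 0.00545), from 9.69 and 8.07 to 18.0 and 16.3 FPKM. In OE at day 6 Eng stood at -0.72 against EV, just short of the threshold (limma adjusted p = 0.0507). Acvrl1, the type I receptor with which endoglin works, rose by 0.88 with time in EV (limma adjusted p = 0.0075), from 0 and 0.176 to 1.14 and 0.847 FPKM. Its call ended under quantile normalization (adjusted p = 0.0859).

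None of the tested SMAD genes that carry the signal passed the limma test in any comparison. Smad9 was not in the table. Smad1 ran from 9.76 to 15.5 FPKM, Smad5 from 2.62 to 4.94 and the shared partner Smad4 from 2.41 to 10.7. The highest Smad4 value was again in D2_dTAG replicate 1, where its difference from DMSO over both libraries was 0.61 (adjusted p = 0.268), and the other 11 libraries reached at most 4.42 FPKM. In OE at day 6 Smad1 read 15.4 and 15.5 FPKM against 9.76 and 11.7 in EV, a difference of 0.49 (limma adjusted p = 0.141). Smad5 and Smad4 stood at 0.17 and 0.06 in that comparison. Smad2, from 4.25 to 10.6 FPKM, and Smad3, from 3.23 to 6.94, which serve the activin branch, did not pass either.

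Of 10 genes that restrain SMADs inside the cell, Skil alone was called. Its product SnoN represses SMAD targets, and with dTAG13 it read 4.85 and 7.33 FPKM against 11.99 and 11.2 and fell by 0.85 (SE 0.24, limma adjusted p = 0.044). That call ended without D2_dTAG replicate 1, at -0.60 and an adjusted p of 0.0527. Quantile normalization gave Skil an adjusted p of 0.0762, median-ratio scaling 0.0807 and a pseudocount of 0.1 gave 0.0518. Of 4 tested secreted antagonists and processors, the Nodal and BMP antagonist Dand5 rose with dTAG13 by 0.81 (SE 0.21, limma adjusted p = 0.0355), from 2.75 and 2.23 to 5.35 and 4.89 FPKM. A pseudocount of 0.1 gave Dand5 an adjusted p of 0.0512.

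Of 10 other BMP targets tested, 3 rose and 0 fell with time in EV, beside 13.3% of all genes higher and 10.5% lower. Of the 7 that did not pass, Hey1, Gata2 and Gata3, the last 2 named after their values were seen, stood at -0.22, -0.60 and -0.45, and the other 4 between 0.04 and 1.04. Isl1, a mesoderm regulator, rose by 1.51 (limma adjusted p = 0.00168), from 0.0645 and 0.330 to 2.23 and 2.54 FPKM. The homeobox gene Msx1 rose by 1.46 (limma adjusted p = 0.00847; 0.132 with a pseudocount of 0.1), from 0.918 and 0.834 to 4.19 and 4.11 FPKM. Tbx3, a T-box factor also tied to pluripotency, rose by 0.91 (limma adjusted p = 0.00339), from 57.4 and 57.3 to 105 and 112 FPKM. With dTAG13, Hand1 rose by 1.20 (SE 0.24, limma adjusted p = 0.0149; 0.178 with a pseudocount of 0.1), from 4.16 and 2.88 to 7.94 and 10.7 FPKM. Hey1, a repressor of the Hairy family, read 0 and 0.968 FPKM with dTAG13 against 2.13 and 2.496 and fell by 1.24 (SE 0.30, limma adjusted p = 0.0286). The value of 0 is that of D2_dTAG replicate 1, and leaving it out gave -0.75; a pseudocount of 0.1 gave an adjusted p of 0.0688. None of the 10 passed in OE on either day. Of the ID partners, the E protein gene Tcf4 rose with time in EV by 0.73 (limma adjusted p = 0.0219; 0.236 under quantile normalization), while Tcf3 and Tcf12 did not pass.

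The dTAG13 calls rest on the spread shared by all 6 groups: fitted on the dTAG13 and DMSO libraries alone, limma called 0 of 12059 genes, with 0 of the 7 named here among them. Without D2_DMSO replicate 2 none of the 7 passed (adjusted p from 0.0724 to 0.213), and without D2_DMSO replicate 1 only Bmp7 and Eng did. Of the 8 calls with time in EV, those of Bmp4, Tbx3 and Isl1 held in every alternative run; without D6_EV replicate 1, 3 genes passed, and without D2_EV replicate 1, 4.

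**Figure D3:**
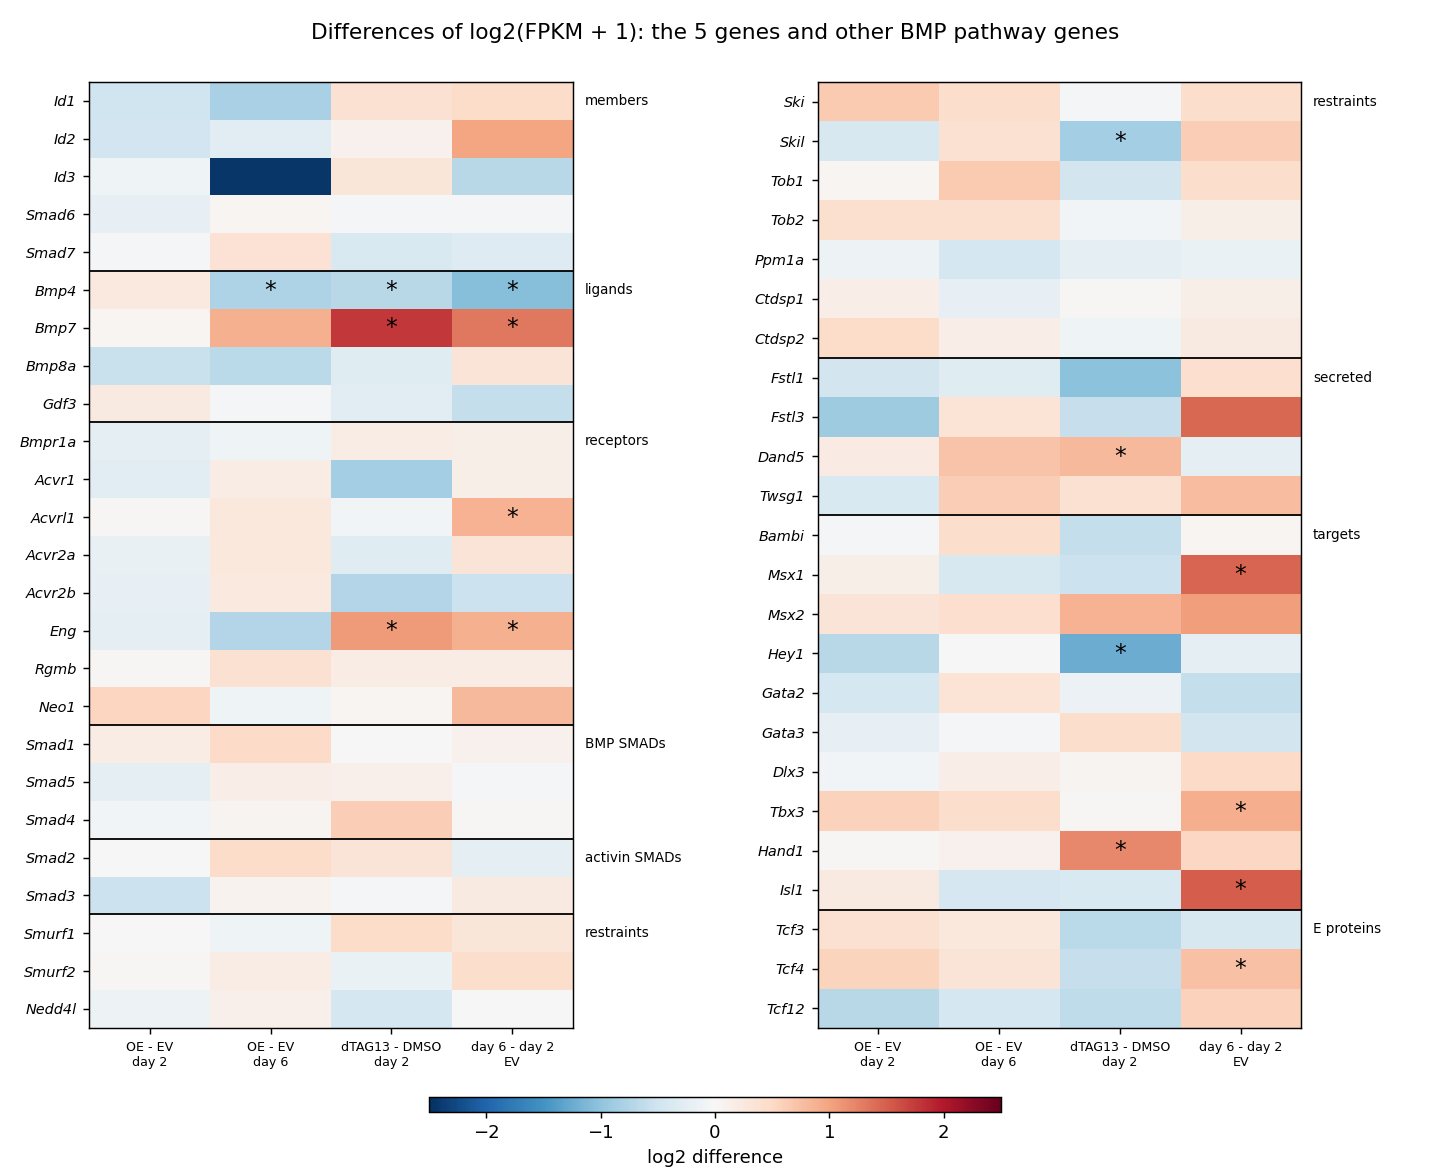
Differences of log2(FPKM + 1) for the 5 genes at the top left and 44 other pathway genes by role, in 4 comparisons; red is higher and blue lower in the group named before the minus sign, and asterisks mark a limma adjusted p under 0.05 (the 5 genes carry none, as they were tested for dTAG13 only). Id3 in OE at day 6, at -2.43, is the darkest blue.

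The genes most like Id1, Id2 and Id3 were found by the root-mean-square difference between centred log2(FPKM + 1) profiles over the 12 libraries, among 7523 genes with a mean of at least 5 FPKM. Smad6 and Smad7 spanned less than 1 between their highest and lowest group means and were not matched. Nearest to Id3 were Aoah, a lipase that inactivates bacterial lipopolysaccharide (0.30 on the log2 scale), the long noncoding RNA gene Platr21 (0.36) and Dnmt3l, a cofactor of DNA methylation (0.40). All 3 were also low in day 6 OE, at 1.95 and 2.29 FPKM for Aoah, 1.27 and 0.820 for Platr21 and 10.6 and 8.83 for Dnmt3l. In day 6 EV they read 14.0 and 16.2, 4.78 and 5.15, and 32.7 and 37.0 FPKM. From Id3, Id1 stood at 1.02 (rank 1257 among the 7523) and Id2 at 1.44 (rank 6304). Nearest to Id1 were Clu, which encodes the chaperone clusterin (0.29), Ddx59 (0.36) and Pcbd2 (0.37). Nearest to Id2 were Fbxl4 (0.21), Pigk (0.22) and Cd37 (0.22). Being chosen for likeness, these genes are a description and no support for a shared course.

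**Figure D4:**
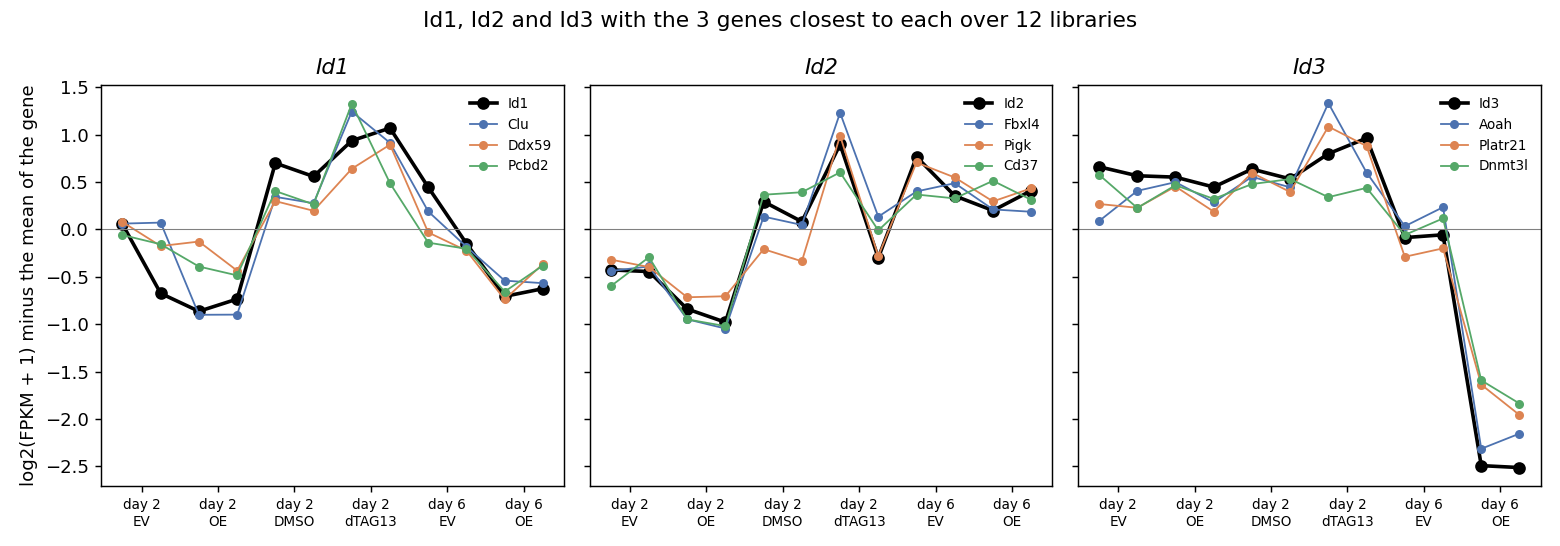
Centred log2(FPKM + 1) of Id1, Id2 and Id3 (black) and the 3 genes closest to each (colours) over the 12 libraries, with lines only to guide the eye. Id3, Aoah, Platr21 and Dnmt3l are all lowest in the day 6 OE pair.

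None of the 10 tested genes around Id3 on its chromosome stood as low in day 6 OE. The 5 tested genes on either side stood between -0.62 (Tcea3) and 0.77 (Hnrnpr) in OE at day 6, with a median of -0.13, against -2.43 for Id3. Its nearest neighbours Rpl11 and E2f2 stood at 0.11 and -0.18. Around Id1, the 10 neighbours ran from -0.46 to 0.57 at day 6 with a median of 0, and Id1 at -0.81 lay below all of them. At day 2, 1 of the 10 neighbours lay below Id1. The 10 neighbours of Id2 ran from -0.36 to 1.15 at day 6, and 3 of them lay below Id2. On 1 side of Id2 the tested neighbours start far off, from 1207 kb (Rnf144a) to 3597 kb (Trappc12) away. With dTAG13 all 10 neighbours of Id3 lay below its 0.30, at a median of -0.16. The ID genes were picked with their OE values in view. Their place among neighbours in OE is therefore a description, and nothing is read from it.

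**Figure D5:**
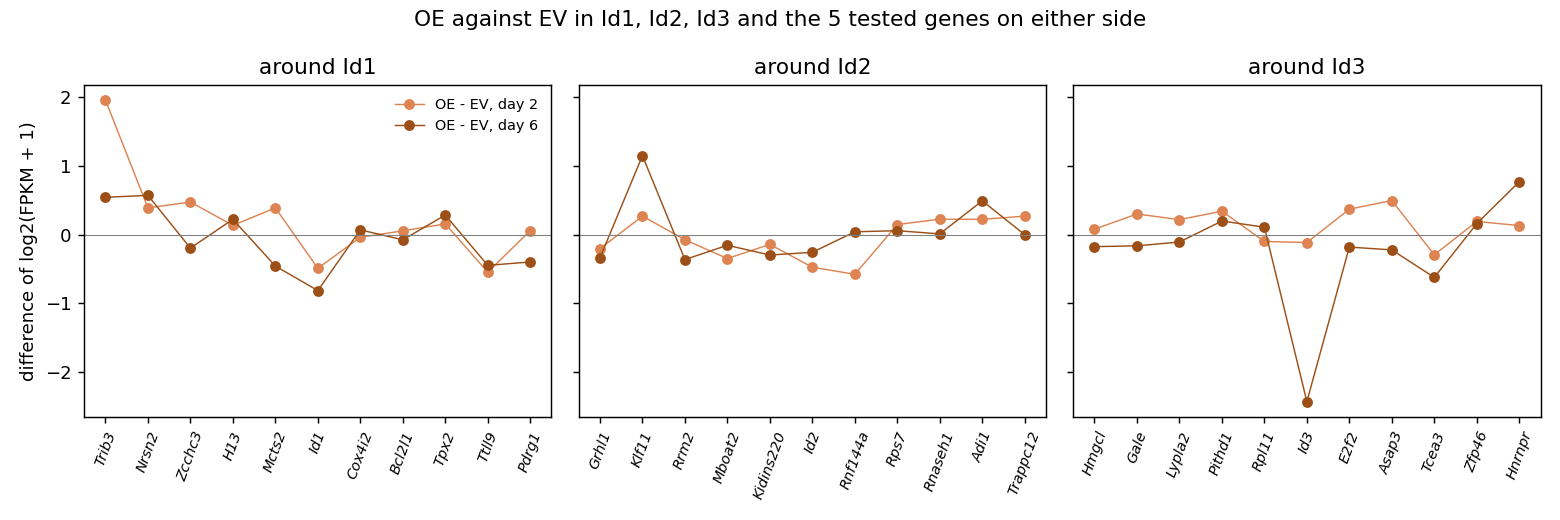
Difference of log2(FPKM + 1) between OE and EV at day 2 (light) and day 6 (dark) for Id1, Id2 and Id3 and the 5 tested genes on either side, in chromosome order and not to distance. Id3 at day 6 stands at -2.43, and its neighbours lie between -0.62 and 0.77.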

How the data were processed

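RNA of 12 libraries was measured in 6 groups of 2, taken from the labels. Per the submitters' processing notes, FastQC 0.10.1, Trim Galore 0.6.3, cutadapt, STAR 2.7.6a and Cufflinks 2.2.1 were used, with the mm10 build. The authors deposited 1 table of 12955 genes whose values are FPKM with 1 added. The added 1 was inferred from the values, since the smallest value is 1 in every column, and it was subtracted here. Read counts are not given in the sources used here, so no depth, interval or floor per value is stated. Genes with at least 1 FPKM in 2 or more libraries (12059) entered limma 3.58.1 (R 4.3.3). Their log2(FPKM + 1) values were fitted as 6 group means over all 12 libraries with a trended prior, and p-values were adjusted by Benjamini-Hochberg over all of them (threshold 0.05). All 5 genes passed the filter. The procedure was tested on simulated data. These gave a gene the same spread in every group, so the effect of D2_dTAG replicate 1 on the calls was not checked.

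The genes, the role lists and the marker lists were chosen with earlier results of these data known. Named were the 5 genes, each listed pathway gene past the threshold in any of 5 comparisons, the 2 most abundant of a list with none, and the 3 genes most alike in profile to each gene spanning at least 1 on the log2 scale. Unnamed gene models were left out of that search. The replicate numbers name no shared culture or day in the labels and were not used to pair libraries. Alternatives were another pseudocount, no filter, 2 other scalings, a replicate block, a fit on the groups compared alone, and leaving out single libraries.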

Additional observations from a re-analysis of the deposited data

How the results depend on the processing

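Of 16 pathway gene and comparison pairs named, 169 alternative values were computed, of which 121 passed the threshold, 48 did not (30 without 1 library, 18 under other settings) and 0 reversed. Counts of all genes called moved as follows. For OE at day 2 they were 188 under quantile normalization, 171 under median-ratio scaling and 1032 in the fit on the groups compared alone, for OE at day 6 1048 (quantile) and 3429 (groups alone), for the difference of the OE effects 151 (quantile), 49 (median-ratio) and 1172 (groups alone), for dTAG13 0 and for time in EV 5395 (groups alone). Without 1 library they ran from 1 to 1692, 18 to 3046, 2 to 1339, 202 to 7262 and 1138 to 6286 in that order of comparisons.
For the 44 pathway genes the counts moved to 6 for OE at day 2 (groups alone), to 0 (pseudocount 0.1), 4 (quantile), 2 (median-ratio) and 15 (groups alone) for OE at day 6, to 3 for the difference (groups alone), to 3 (pseudocount 0.1) and 0 (groups alone) for dTAG13 and to 20 for time in EV (groups alone). Without 1 library they ran from 0 to 10, 0 to 11, 0 to 4, 0 to 27 and 3 to 25. The highest count was the one without D2_dTAG replicate 1, except for dTAG13, where it was the one without D2_dTAG replicate 2. With dTAG13, leaving out single libraries gave Id1 0.30 to 0.44, Id2 -0.49 to 0.71, Id3 0.21 to 0.38, Smad6 -0.61 to 0.50 and Smad7 -0.52 to -0.24, and Smad6 was 0.06 under quantile normalization. The Id3 difference in OE at day 6 was -2.46 with a pseudocount of 0.1, -2.62 under quantile normalization, -2.49 under median-ratio scaling and -2.44 to -2.41 without 1 library. Quantile normalization gave Id3 -0.26 in OE at day 2, and -0.46 for Id3, -0.42 for Smad6 and -0.58 for Smad7 with time in EV. A pseudocount of 0.1 gave Smad6 -0.38 in OE at day 2 and 0.47 for the difference. The cause of these moves was not tested. Where an arm was left with 1 library, that library was assumed to vary like the other groups.

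With the replicate number as a block, 98 genes were called for OE at day 2, 372 for OE at day 6, 21 for the difference, 1349 for dTAG13 and 2741 for time in EV. The block gave Bmp4 in OE at day 6 an adjusted p of 0.0561 in limma and ended no other call named here. In that comparison the block fit still called 1 pathway gene lower, a gene not called there in the main fit. Deviations of same-numbered libraries correlated across genes at 0.13 for EV and OE at day 2, -0.12 at day 6, -0.10 for DMSO and dTAG13 and 0.25 for EV at day 2 and day 6.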
